A study of Mus musculus with 10 samples.

Results

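Genes for potassium channel subunits were examined in whole embryonic mouse hearts at E12.5. They were chosen by name alone, as genes whose mouse symbol begins with Kcn, continues with family letters and then a number, with Kcne1 and the antisense transcript Kcnq1ot1 left out. Of the 49662 genes in the table, 91 met this rule. Of these, 59 reached 10 estimated fragments in at least 1 group, 57 of them in every group. The other 32 stayed below 10 fragments in every group. Kcnj11, the usual pore subunit of the ventricular ATP-sensitive channel, was not analysed here.

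Hearts of 3 groups were compared. Wild-normoxia hearts (4 samples) came from wild-type embryos at normal oxygen. Wild-hypoxia hearts (3 samples) came from wild-type embryos whose mothers were kept in a chamber at 14% oxygen from gestation day 10. Mutant-normoxia hearts (3 samples) came from embryos at normal oxygen that carried 1 knock-in copy of the missense allele R52G (Nkx2-5 +/R52G) in all their cells. Nkx2-5 is a cardiac transcription factor that binds DNA through its homeodomain. The mothers were wild type, the mutant line had been bred onto an inbred strain, and each sample combined the RNA of 2 to 3 hearts, so a sample is neither a single animal nor a single cell type. The RNA was poly-adenylated RNA read by single-end sequencing.

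For each gene the table gives 1 estimated count of fragments per group and its model variance, but no value of a single sample. The variance has an uncertainty part and a dispersion part. No spread between samples could be computed without sample values, and no test or p-value is given for any difference. Differences are log2 ratios of group values, each raised by a pseudocount of 1, which understates the change of low genes. Each carries a model standard error (SE), the error that the deposited variances give when divided by the number of samples. A fold over 2 (a log2 ratio above 1 or below -1) is used as a mark of size only. The estimated counts added up to 18.54 to 19.58 M per group. The 17204 genes that reached 10 fragments in a group and were estimated in all groups form the background.

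Potassium channels let potassium ions leave or enter a cell and so set its resting potential and end each action potential. In heart muscle the inward rectifiers (Kcnj) hold the resting potential, voltage-gated channels (Kcna, Kcnd, Kcnh, Kcnq) carry the transient outward and delayed rectifier currents of repolarisation, and tandem-pore channels (Kcnk) carry background current. Pore subunits assemble with accessory subunits (Kcne, Kcnip, Kcnab), and the silent modifiers (Kcnf, Kcng, Kcns, Kcnv) form no channel alone but join Kcnb subunits and change their gating. Calcium-activated channels (Kcnma, Kcnn) and a sodium-activated relative (Kcnt) couple potassium flow to the ions inside the cell.

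Promoters are shown for 3 of the genes farthest from wild-normoxia in model SE, to describe the letters they hold. Whether Nkx2-5 or hypoxia acts through these promoters was not tested. They are RefSeq sequences of GRCm38.p6 and run from 250 bases before to 50 bases after the gene start, 5′ to 3′ on the strand of the gene. Kcnd2 is at chr6:21215096-21215395 (plus strand), Kcnf1 at chr12:17176839-17177138 (minus strand) and Kcnn4 at chr7:24370013-24370312 (plus strand). Capitals mark matches to the Nkx2-5 element TNAAGTG or to the core of the hypoxia response element, ACGTG or GCGTG, searched on both strands.
Kcnd2: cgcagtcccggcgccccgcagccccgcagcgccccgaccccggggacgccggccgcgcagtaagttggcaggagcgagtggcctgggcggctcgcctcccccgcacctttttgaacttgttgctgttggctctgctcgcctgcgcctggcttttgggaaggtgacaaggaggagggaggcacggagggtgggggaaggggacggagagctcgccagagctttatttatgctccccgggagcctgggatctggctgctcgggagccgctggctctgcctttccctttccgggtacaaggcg
Kcnf1: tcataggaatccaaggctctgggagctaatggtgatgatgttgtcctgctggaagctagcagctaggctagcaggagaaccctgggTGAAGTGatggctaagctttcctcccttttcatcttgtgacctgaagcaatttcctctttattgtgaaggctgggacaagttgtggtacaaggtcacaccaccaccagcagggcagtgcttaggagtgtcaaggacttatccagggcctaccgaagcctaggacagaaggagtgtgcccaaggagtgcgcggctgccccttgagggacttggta
Kcnn4: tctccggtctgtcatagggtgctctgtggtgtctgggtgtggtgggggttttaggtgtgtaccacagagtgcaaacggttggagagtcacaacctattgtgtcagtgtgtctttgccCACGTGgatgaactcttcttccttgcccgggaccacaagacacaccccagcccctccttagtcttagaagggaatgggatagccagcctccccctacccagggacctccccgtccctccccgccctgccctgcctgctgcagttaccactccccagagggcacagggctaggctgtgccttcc
The Kcnd2 promoter held no match to either motif. That of Kcnf1 held 1 Nkx2-5 element, 164 bases before the start. That of Kcnn4 held the hypoxia core on both strands within the same 6 letters, which is why 2 overlapping matches are counted there. Promoters were found for 44 of the 59 measured genes, 66 promoters in all. The Nkx2-5 element was in 5 of these 66 (7.58%), against 11.5% of all 32851 promoters in the table, and the hypoxia core was in 29 (43.9%), against 43.8%. A match describes letters in the window only. Kcng1, described below, has no entry there. Kcns3, also described below, has promoters that are not printed. That at chr12:11150324-11150623 held 2 hypoxia cores and 0 Nkx2-5 elements. The one at chr12:11150793-11151092 held 0 of either.

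The potassium channel genes together took 0.0923% of all estimated fragments in wild-normoxia hearts, 0.0846% in wild-hypoxia hearts and 0.0908% in mutant-normoxia hearts, or 17112, 16571 and 16969 fragments. A few genes carried most of this. The 5 members of highest mean count held 57.6% of the sum in wild-normoxia hearts, 58.9% in wild-hypoxia hearts and 58.7% in mutant-normoxia hearts. A mean of at least 1000 fragments was reached by 4 members, and a mean of at least 100 by 30.

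**Figure D1:**
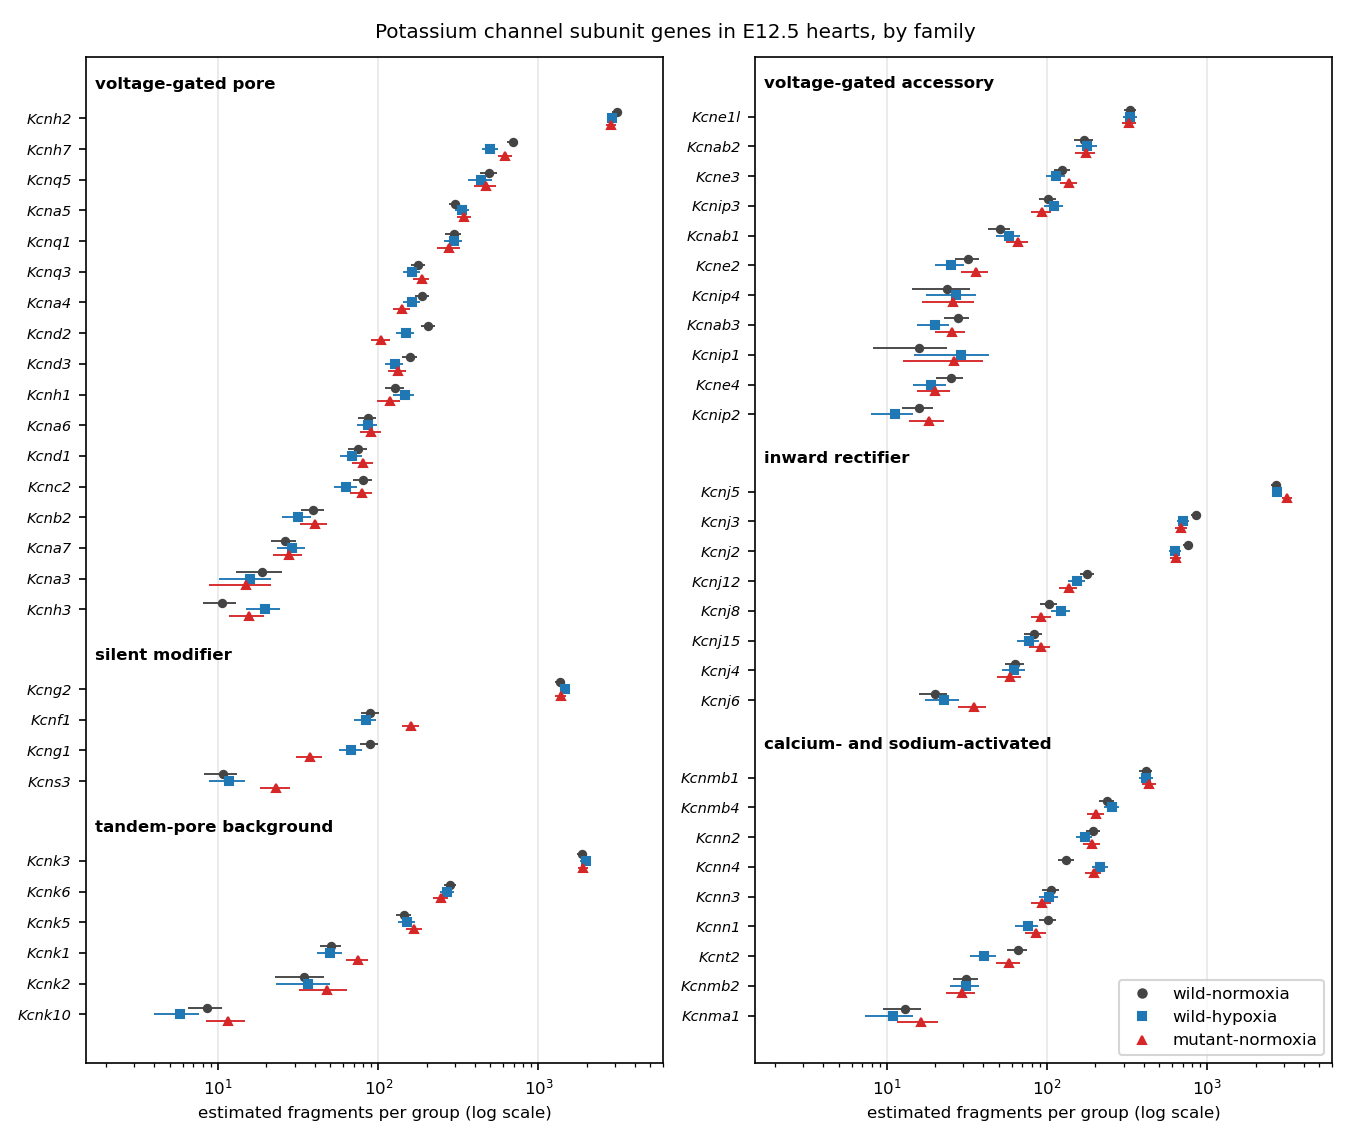
Estimated fragments per group (log scale) of 55 of the 59 measured genes, arranged by family, with a symbol for each of the 3 groups and bars of the deposited standard deviation divided by the square root of the number of samples. Kcnh2, Kcnj5, Kcnk3 and Kcng2 lie above 1000 fragments in every group, and the symbols of most genes overlap, while those of Kcnd2, Kcnf1, Kcng1 and Kcnn4 stand apart.

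Between genes, levels can be compared only per length, here as estimated fragments per kilobase of annotated exon (NCBIM37 annotation, whose exons may differ from those used for counting). In wild-normoxia Kcnh2, the pore subunit of the rapid delayed rectifier, stood at 639 fragments per kilobase. Kcnj5, a subunit of the acetylcholine-gated inward rectifier, followed at 595, and Kcnk3, an acid-sensitive background channel, at 491. Kcnh2 and Kcnj5 were 0.800 model SE apart, so their order is not set by these data, while Kcnj5 and Kcnk3 were 2.11 apart. The next was Kcne1l, an accessory subunit of voltage-gated channels, at 214 per kilobase, 7.55 model SE below Kcnk3. Kcnj3, the partner of Kcnj5, was at 164 and Kcnj2, the main subunit of the ventricular inward rectifier, at 139, and these neighbours were 1.60 model SE apart. Below a gap of 3.07 model SE came Kcna5 (99.9 per kilobase), Kcnmb1 (98.9), Kcnq1 (96.0) and Kcne3 (94.2), neighbours at most 0.197 model SE apart. Kcng2 would rank first at 1939 per kilobase, but its annotated exon has 705 bases, the shortest among the measured genes, so its place is uncertain.

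The voltage-gated pore subunits summed to 6230 fragments in wild-normoxia hearts, 5724 in wild-hypoxia hearts and 5792 in mutant-normoxia hearts, from 21 measured genes of 30. Kcnh2 (chr5:23825407-23857422, minus strand, NCBIM37) supplied the largest share, with 3094 fragments in wild-normoxia hearts, 2897 in wild-hypoxia hearts and 2843 in mutant-normoxia hearts. Its log2 ratios were -0.09 and -0.12 (model SE 0.14 for both), within 1 model SE of 0. Kcna5, the channel of the ultrarapid current, had 300, 335 and 344 fragments in the same order, and log2 ratios of 0.16 and 0.20 (0.18 for both). Kcnq1, the pore of the slow delayed rectifier, had 296, 296 and 277 fragments. The group values of these 3 repolarising channels lay close together.
Kcnd2 and Kcnd3 form the channel of the transient outward current, with Kcna4 in its slow form and Kcnip2 as accessory subunit. Kcnd2 (ENSMUSG00000060882, chr6:21165503-21679805, plus strand, NCBIM37) had 205 fragments in wild-normoxia hearts, 148 in wild-hypoxia hearts and 104 in mutant-normoxia hearts, a log2 ratio of -0.47 (0.22) in wild-hypoxia and of -0.98 (0.24) in mutant-normoxia. Mutant-normoxia was lowest, at 0.506 times wild-normoxia, a distance of -4.01 model SE, and wild-hypoxia lay between. Kcnd3 had 157, 127 and 132 fragments, with log2 ratios of -0.31 and -0.25 (0.24 for both). Kcna4 had 188, 162 and 141 fragments, with ratios of -0.21 (0.22) and -0.42 (0.23). Kcnip2 was near the lower limit of measurement, at 15.8, 11.2 and 18.2 fragments. All 3 pore genes of this current were lower in both groups than in wild-normoxia, but for Kcnd3 and Kcna4 by less than 2 model SE. Both groups were set against the same wild-normoxia value. Of all genes, 52.1% were lower than that value for mutant-normoxia and 54.1% for wild-hypoxia. Kcnip2 had a log2 ratio of 0.19 (0.45) for mutant-normoxia, so it was higher there, and of -0.46 (0.48) for wild-hypoxia.
The study also lists Kcnd2 and Kcng1 among its changed genes of mutant-normoxia hearts, and that list rests on the same samples, so it is no independent evidence for their direction. Kcnf1, Kcns3 and Kcnn4, described below, are not in that list, and Kcnn4 is not in the study's list for wild-hypoxia hearts either.
Among the other voltage-gated pore genes, Kcnh7, a relative of Kcnh2 known mainly from the nervous system, had 693 fragments in wild-normoxia hearts, 501 in wild-hypoxia hearts and 621 in mutant-normoxia hearts, with log2 ratios of -0.47 (0.20) and -0.16 (0.19). Of its exon bases, 4.57% overlap the gene Gca on the opposite strand, and whether strand was used in counting is not stated. Kcnq5 (492, 436 and 470) and Kcnq3 (178, 162 and 187), channels of the M-current family, differed from wild-normoxia by less than 1 model SE in both groups. A further 8 pore genes, Kcna3, Kcna6, Kcna7, Kcnb2, Kcnc2, Kcnd1, Kcnh1 and Kcnh3, had between 10.5 fragments (Kcnh3 in wild-normoxia) and 146 (Kcnh1 in wild-hypoxia). Their log2 ratios ran from -0.35 (Kcnc2 in wild-hypoxia) to 0.85 (Kcnh3 in wild-hypoxia), and 39.5% of the exon bases of Kcna6 overlap Gm17456 on the opposite strand.

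The silent modifiers hold 3 of the genes whose mutant-normoxia value was farthest from wild-normoxia, and 4 of their 10 members were measured. Kcng2 was the most abundant, with 1367 fragments in wild-normoxia hearts, 1468 in wild-hypoxia hearts and 1380 in mutant-normoxia hearts, and log2 ratios of 0.10 and 0.01 (0.15 for both). Kcng1 (ENSMUSG00000074575, chr2:168085617-168107236, minus strand, NCBIM37) had 88.7, 67.8 and 37.6 fragments. Mutant-normoxia was lowest, with a log2 ratio of -1.22 (0.32), a distance of -3.78 model SE, against -0.38 (0.29) in wild-hypoxia. Kcnf1 (chr12:17178908-17183694, minus strand, NCBIM37) went the other way, with 88.9, 83.5 and 159 fragments. Its log2 ratio was 0.83 (0.25) in mutant-normoxia and -0.09 (0.28) in wild-hypoxia, so mutant-normoxia alone stood apart. Kcns3 (chr12:11097008-11157648, minus strand, NCBIM37) was low, with 10.7, 11.7 and 23.1 fragments and a log2 ratio of 1.04 (0.42) in mutant-normoxia and of 0.12 (0.46) in wild-hypoxia.

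All 11 accessory subunits of voltage-gated channels were measured, 4 of them with a mean of at least 100 fragments. Kcne1l had 330 fragments in wild-normoxia hearts, 331 in wild-hypoxia hearts and 325 in mutant-normoxia hearts, values that lay close together. Kcnab2, a cytoplasmic beta subunit, had 170, 178 and 174 fragments, and Kcnip3, a calcium-binding protein, 101, 110 and 93.0. Kcne2, which joins Kcnh2, had 32.1, 25.2 and 35.9. The other 6, Kcne3, Kcne4, Kcnab1, Kcnab3, Kcnip1 and Kcnip4, ran from 15.9 fragments (Kcnip1 in wild-normoxia) to 137 (Kcne3 in mutant-normoxia), and their log2 ratios from -0.46 (Kcnab3 in wild-hypoxia) to 0.83 (Kcnip1 in wild-hypoxia, model SE 0.96). In both groups 10 of the 11 accessory genes lay within 1 model SE of wild-normoxia. Of all genes, 75.3% did so in wild-hypoxia and 82.5% in mutant-normoxia.

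The inward rectifiers summed to 4731 fragments in wild-normoxia hearts, 4495 in wild-hypoxia hearts and 4880 in mutant-normoxia hearts, from 8 measured genes of 14. Kcnj5 (chr9:32122368-32151822, minus strand, NCBIM37) had 2673, 2725 and 3150 fragments, with log2 ratios of 0.03 (0.14) and 0.24 (0.14). Its partner Kcnj3 had 853, 703 and 684 fragments, with ratios of -0.28 (0.16) and -0.32 (0.16). The direction of the 2 partners thus differed in mutant-normoxia, and the ratio of Kcnj5 to Kcnj3 per kilobase was 3.64 in wild-normoxia hearts, 4.50 in wild-hypoxia hearts and 5.34 in mutant-normoxia hearts. Of the exon bases of Kcnj3, 31.1% overlap the long non-coding RNA Gm17595 on the opposite strand, and fragments of the 2 genes in that stretch cannot be told apart without strand.
Kcnj2 had 759, 630 and 634 fragments, with log2 ratios of -0.27 and -0.26 (0.16 for both), and its relative Kcnj12 had 177, 154 and 136, with ratios of -0.20 and -0.38 (0.23 for both). Both differed from wild-normoxia by less than 2 model SE in the 2 groups. Kcnj8, the pore of the vascular ATP-sensitive channel, had 103, 122 and 92.1 fragments. Kcnj4 had 63.1, 62.3 and 58.4 and Kcnj15 had 82.5, 76.5 and 90.9. Kcnj6, a neuronal relative of Kcnj3, had 19.8, 22.6 and 34.8 fragments, with a ratio of 0.79 (0.39) in mutant-normoxia.

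Among tandem-pore background channels, Kcnk3 (chr5:30890543-30927643, plus strand, NCBIM37) had 1870 fragments in wild-normoxia hearts, 1974 in wild-hypoxia hearts and 1904 in mutant-normoxia hearts. Its log2 ratios of 0.08 and 0.03 (0.14 for both) were within 1 model SE of 0. Kcnk6 had 280, 269 and 246 fragments, and Kcnk5 144, 151 and 168. Kcnk1 had 50.8, 50.1 and 74.2 fragments, with a ratio of 0.54 (0.31) in mutant-normoxia. Kcnk2, a stretch-sensitive channel, had 34.2, 36.5 and 48.0 fragments and its model SE of 0.71 and 0.67 were larger than its log2 ratios of 0.09 and 0.48. Kcnk10 had 8.55, 5.79 and 11.5 fragments and reached the minimum of 10 in mutant-normoxia only.

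Among calcium- and sodium-activated channels, Kcnn4 was the gene that stood farthest from wild-normoxia in both groups. Kcnn4 (ENSMUSG00000054342, chr7:25155282-25170228, plus strand, NCBIM37) is the intermediate-conductance calcium-activated channel, known as the Gardos channel of red cells. It had 131 fragments in wild-normoxia hearts, 215 in wild-hypoxia hearts and 195 in mutant-normoxia hearts, 1.63 and 1.49 times the wild-normoxia value, and log2 ratios of 0.70 (0.23) and 0.57 (0.24). Red cell markers were also higher: the 9 of 14 with a value, none at 0, summed to 12293 fragments in wild-normoxia hearts, 33175 in wild-hypoxia hearts and 28628 in mutant-normoxia hearts. Their part in the Kcnn4 difference was not tested. In whole hearts, more cells of a type and more RNA per cell cannot be told apart.
Kcnmb1, the beta subunit of the large-conductance channel of smooth muscle, had 414, 415 and 433 fragments, while its pore gene Kcnma1 had 12.9, 10.9 and 16.2. The ratio of Kcnmb1 to Kcnma1 per kilobase was 36.4, 43.3 and 30.2. The other beta subunits, Kcnmb2 (31.2, 30.9 and 29.5) and Kcnmb4 (235, 253 and 201), differed from wild-normoxia by about 1 model SE or less, and 20.8% of the exon bases of Kcnmb4 overlap 4933400F03Rik on the opposite strand. The small-conductance channels Kcnn1 (101, 75.5 and 85.4), Kcnn2 (194, 171 and 190) and Kcnn3 (106, 103 and 92.8) differed from wild-normoxia by less than 2 model SE in both groups. Kcnt2, a sodium-activated channel, had 65.7, 40.4 and 57.8 fragments, with log2 ratios of -0.69 (0.33) and -0.18 (0.32).

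**Figure D2:**
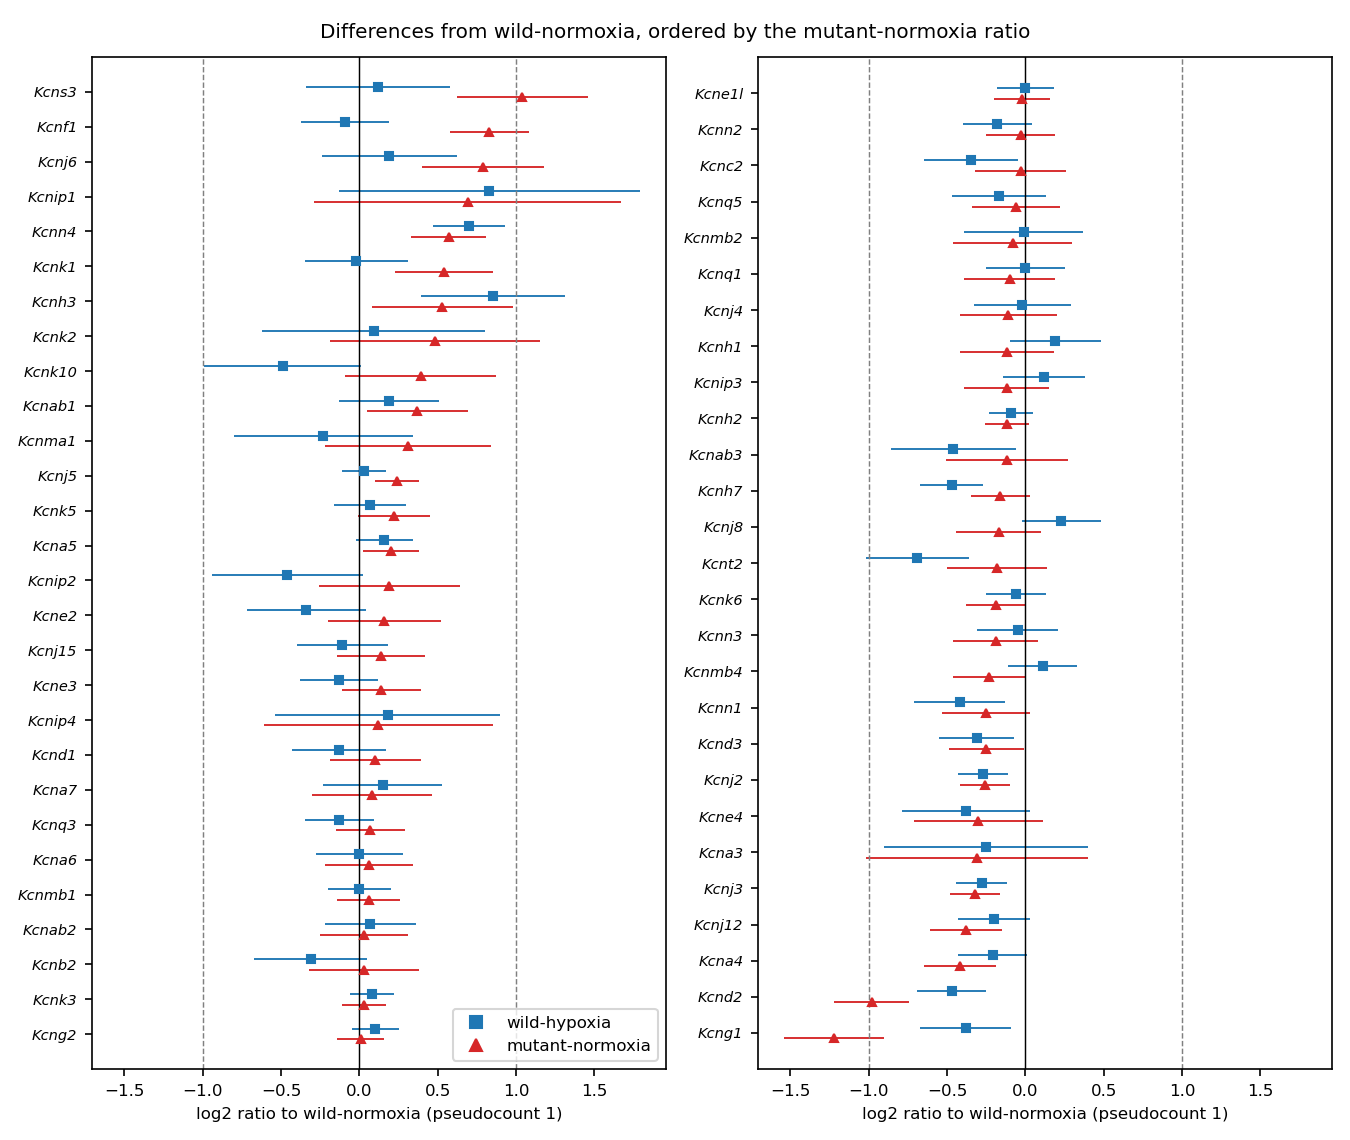
Log2 ratios to wild-normoxia (pseudocount 1) of 55 of the 59 measured genes in wild-hypoxia (squares) and mutant-normoxia (triangles), ordered by the mutant-normoxia value, with bars of 1 model SE and dashed lines at a fold of 2. Kcns3 (1.04) is at the top and Kcng1 (-1.22) at the end, and both groups are compared with the same wild-normoxia value.

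The comparison of wild-hypoxia with wild-normoxia asks how gestational hypoxia alters the embryonic heart. Few potassium channel genes reached a fold of 2. Of the 59, 1 (1.69%) was over 2-fold higher, against 1.08% of all genes compared, and 1 was over 2-fold lower, against 1.91%. With a distance over 3 model SE also asked for, the counts were 1 higher (against 0.581% of all genes) and 0 lower (against 0.424%). With a pseudocount of 10 both counts over 2-fold were 0, as was the higher one with totals scaled to be equal, and with the variance not divided the count over 3 model SE was 0. A share of 1 in 59 is near these backgrounds. Just under the fold lay Kcnh3 (0.85), Kcnip1 (0.83) and Kcnn4 (0.70). The median log2 ratio was -0.06, against -0.02 over all genes, and 36 of the 59 were lower (61.0%, against 54.1% of all genes). The family medians were -0.13 for voltage-gated pore subunits, 0.01 for silent modifiers, 0.00 for accessory subunits, -0.06 for inward rectifiers, 0.02 for background channels and -0.05 for calcium- and sodium-activated channels. Within 1 model SE of wild-normoxia were 45 genes, 76.3%, against 75.3% of all genes. Over 2 model SE were 5 (8.47%, against 5.63% of all genes), among them Kcnn4 on the higher side and Kcnt2, Kcnh7 and Kcnd2 on the lower.
Kcnt2 and Kcnh7 are known mainly from neurons. The 16 of 17 neuron markers with a value, none at 0, summed to 2300 fragments in wild-normoxia hearts, 1892 in wild-hypoxia hearts and 2617 in mutant-normoxia hearts, and their median log2 ratio was -0.38 in wild-hypoxia and 0.23 in mutant-normoxia. In mutant-normoxia Kcnt2 was at -0.18 (0.32) and Kcnh7 at -0.16 (0.19), both within 1 model SE of wild-normoxia. The part of neurons in the values of these 2 genes was not tested.

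The comparison of mutant-normoxia with wild-normoxia asks what a heterozygous Nkx2-5 mutation alters at normal oxygen. Kcns3 was the 1 gene of 59 (1.69%) over 2-fold higher, against 1.59% of all genes, and Kcng1 the 1 gene over 2-fold lower, against 0.494%. With over 3 model SE also asked for, the counts were 0 higher (0.872% of all genes) and 1 lower, Kcng1 (0.203% of all genes). With the variance not divided by the number of samples the latter count was 0, and with a pseudocount of 10 Kcns3 was at 0.68, under the fold. Kcnd2, at -0.98, lay just under the fold, followed by Kcnf1 at 0.83 and Kcnj6 at 0.79. Genes over 2 model SE were Kcnd2, Kcng1 and Kcnj3 on the lower side and Kcnf1, Kcns3, Kcnj6 and Kcnn4 on the higher side. These 7 are 11.9% of the 59, against 4.28% of all genes, and 42 (71.2%) lay within 1 model SE, against 82.5% of all genes. The median log2 ratio was 0.03, against -0.01 over all genes. By family it was 0.03 for voltage-gated pore subunits, 0.42 for silent modifiers, 0.12 for accessory subunits, -0.14 for inward rectifiers, 0.30 for background channels and -0.08 for calcium- and sodium-activated channels. The silent modifier median rests on 4 genes that ran from -1.22 to 1.04. That of the background channels rests on 6, from -0.19 to 0.54, with the most abundant, Kcnk3, at 0.03.
Marker lists of other tissues also differed in mutant-normoxia. Foregut markers (8 of 8 with a value) summed to 729 fragments in wild-normoxia hearts, 799 in wild-hypoxia hearts and 1237 in mutant-normoxia hearts, a sum that Foxp2 dominates (596, 653 and 704). Their median log2 ratio was 0.72 in wild-hypoxia and 2.18 in mutant-normoxia, where 6 of the 7 compared were over 2-fold higher, and Nkx2-1 had 0.775, 9.32 and 81.6 fragments. In wild-hypoxia 2 of the 7, Shh (-1.02) and Sox2 (-0.85), were lower than wild-normoxia. Epidermis markers (12 of 12) summed to 16209, 17750 and 18581, most of it Dsp (13221, 13510 and 14480), which heart muscle also expresses. Their median was 0.33 in wild-hypoxia and 1.05 in mutant-normoxia, with 4 and 6 of the 12 over 2-fold higher, and Krt5 had 113, 950 and 675 fragments. Against this direction, 2 of the 12, Grhl1 and Perp, were lower in both groups, and Grhl1 had 309, 154 and 190 fragments. Skeletal muscle markers (13 of 13) summed to 8495, 10684 and 13600, mostly Acta1 (6933, 8252 and 10339), with medians of 0.77 and 0.91 over the 10 compared. Liver markers (13 of 13) summed to 5101, 1724 and 1930, with medians of -1.35 and -1.41. No marker of these 4 lists was at 0 in all groups. Their part in the values of Kcnf1, Kcns3, Kcng1 and Kcnd2 was not tested. The 15 cardiomyocyte markers, all measured, summed to 636570, 660648 and 677748, with medians of 0.07 and 0.08 and none over 2-fold. Nkx2-5 itself had 3689, 4131 and 4106 fragments, a count in which both alleles of the mutant are pooled.

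**Figure D3:**
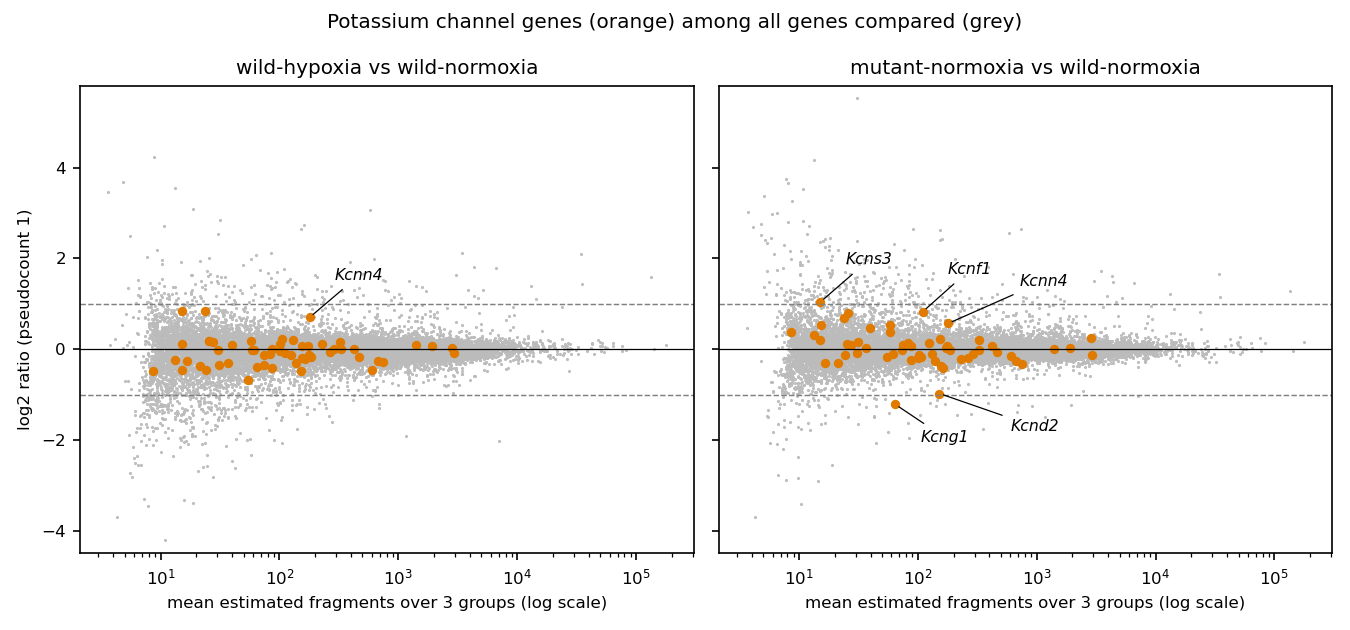
Log2 ratio (pseudocount 1) against mean estimated fragments over the 3 groups (log scale) for the genes compared (grey) and 55 of the 59 measured potassium channel genes (orange), in wild-hypoxia (left) and mutant-normoxia (right), with dashed lines at a fold of 2. None of the 29 potassium channel genes drawn that average 100 fragments or more lies beyond the lines, and Kcnd2 in mutant-normoxia (-0.98) comes nearest to them.

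By level, of the 30 genes averaging 100 fragments or more, 0 were over 2-fold in either comparison, where 0.810% of all genes of that level were in wild-hypoxia and 0.601% in mutant-normoxia. Of the 18 genes with a mean under 50 fragments 1 was over 2-fold in each comparison (5.56%), against 9.59% and 6.15% of all genes of that level. Of the 11 genes with a mean of 50 to 100 fragments 1 was over 2-fold in each comparison as well (9.09%), against 3.46% and 3.53% of all genes of that level, so here the share was above the background, on 1 gene each time. No gene over 2-fold had a mean of 100 fragments or more.

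Wild-hypoxia and mutant-normoxia were also set against each other, which leaves the wild-normoxia value out. Over 2-fold higher in wild-hypoxia were 0 genes (against 0.238% of all genes). Over 2-fold lower was 1 gene (1.69% of the 59, against 1.73%), and 0 with a pseudocount of 10. Neither side held a gene that was over 3 model SE as well, against 0.0465% and 0.500% of all genes. Among the genes farthest apart in model SE were Kcnf1 at -0.92 (0.28), Kcng1 at 0.83 (0.35) and Kcns3 at -0.93 (0.44), all of them silent modifiers. For Kcnd2 the difference was 0.51 (0.27) and for Kcnn4 0.14 (0.24), so these 2 genes were not separated between wild-hypoxia and mutant-normoxia by more than 2 model SE. The median over the 59 genes was -0.06, against -0.02 over all genes. Within 1 model SE lay 40 genes, 67.8%, against 86.0% of all genes.

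**Figure D4:**
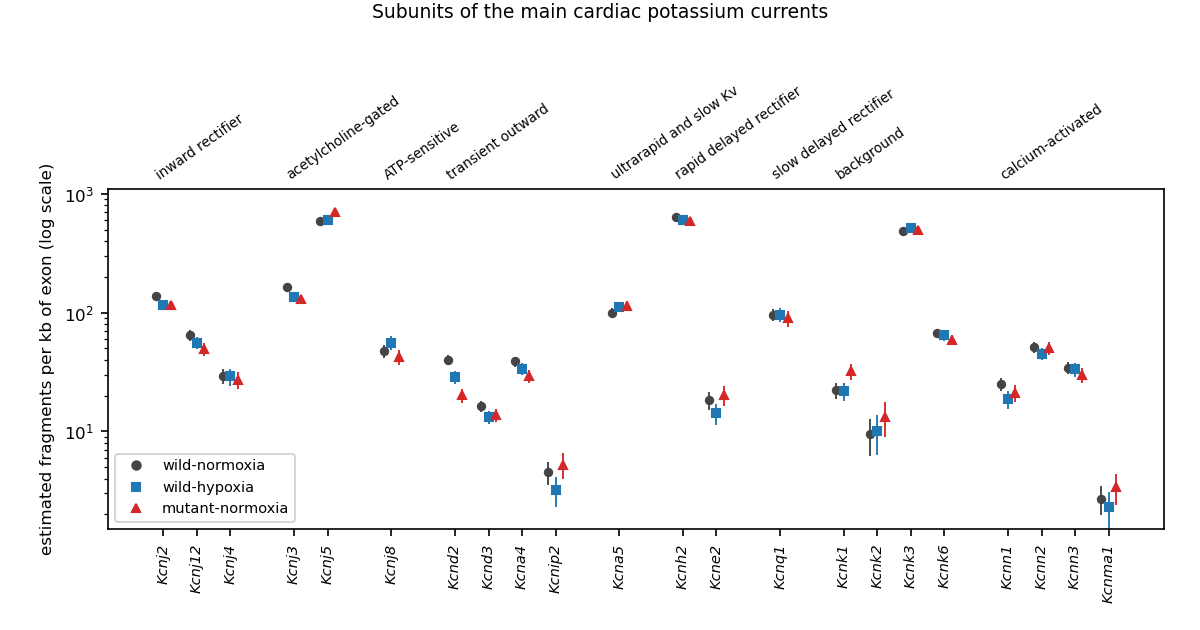
Estimated fragments per kilobase of exon (log scale) for 22 of the 23 measured subunits of the main cardiac potassium currents, grouped by current, with bars of the deposited standard deviation divided by the square root of the number of samples. Kcnh2, Kcnj5 and Kcnk3 lie near 500 or above in every group, and Kcnd2 in the transient outward group steps from 39.8 in wild-normoxia to 28.6 in wild-hypoxia and 20.1 in mutant-normoxia.

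Taking the subunits of the main cardiac currents as a list of 26, 23 were measured and 0 were over 2-fold in any comparison. At the shares of all genes over 2-fold (1.08% higher and 1.91% lower in wild-hypoxia, 1.59% and 0.494% in mutant-normoxia) fewer than 1 of them would be, so the 0 says nothing particular of this list. Their median log2 ratio was -0.09 in wild-hypoxia and -0.11 in mutant-normoxia, against -0.02 and -0.01 over all genes. Below wild-normoxia were 17 and 14 of the 23, where 54.1% and 52.1% of all genes were, and the extremes in mutant-normoxia were Kcnd2 (-0.98) and Kcnk1 (0.54). The ratio of Kcnd2 to Kcnd3 per kilobase was 2.43 in wild-normoxia hearts, 2.17 in wild-hypoxia hearts and 1.46 in mutant-normoxia hearts. That of Kcnj2 to Kcnj12 was 2.17, 2.07 and 2.35, and that of Kcnh2 to Kcnq1 was 6.65, 6.24 and 6.55. The ratios of these last 2 pairs varied less between groups than that of Kcnd2 to Kcnd3, with no test. Other pairs varied too. Kcnd3 to Kcnip2, which is near the lower limit, stood at 3.61, 4.10 and 2.63, and Kcnj5 to Kcnj3 at 3.64, 4.50 and 5.34. The variation is thus not particular to Kcnd2.

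Genes of the same transport that the name rule does not take were read as a separate list of 30, of which 24 were compared and 0 were over 2-fold in either direction, where the same shares of all genes again give fewer than 1. Their medians were -0.12 in wild-hypoxia and -0.07 in mutant-normoxia. Abcc9, the sulphonylurea receptor of the vascular and cardiac ATP-sensitive channel, had 2786 fragments in wild-normoxia hearts, 2414 in wild-hypoxia hearts and 2295 in mutant-normoxia hearts. Abcc8, its neuroendocrine relative, had 106, 133 and 176, with a log2 ratio of 0.73 (0.24) in mutant-normoxia. Hcn4, the pacemaker channel, had 1505, 1582 and 1841 fragments, with ratios of 0.07 (0.15) and 0.29 (0.14). Atp1b1, the beta subunit of the sodium-potassium pump, had 16863, 14027 and 14046, and 6 of the 7 compared pump genes were lower than wild-normoxia in each group, where 54.1% and 52.1% of all genes were lower. The median of the 7 was -0.11 in both groups, and 0 of them were over 2 model SE.

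The 32 genes under 10 fragments included 9 voltage-gated pore subunits, 6 silent modifiers, 6 inward rectifiers, 8 background channels and 3 calcium- and sodium-activated genes. Kcna10, Kcnk15 and Kcnmb3 were at 0 in all groups, 10 of the 32 stayed under 1 fragment in every group, and the highest value was 8.76 fragments, of Kcna1 in mutant-normoxia. No fold is given for any of them.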

How the data were processed

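Poly-adenylated RNA of whole E12.5 hearts was sequenced by the authors as single-end reads of 40 bases. Per the labels, FastQC, Bowtie2, TopHat and Cufflinks were used with the genome mm9, and their versions and the annotation release were not given in those sources. The deposited values are, for every gene, 1 estimated count in each group, put on a common scale by Cufflinks, with a model variance in squared fragments and a status. Groups followed the labels: 4 samples of wild-normoxia, 3 of wild-hypoxia and 3 of mutant-normoxia. A count test over samples could not be run on group values.

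Genes were kept with status OK in all groups and at least 10 fragments in some group; 34 genes had another status in some group, none of them a potassium channel gene. Log2 ratios with a pseudocount of 1, and model SE from each deposited variance over its group's sample number, were computed in Python 3.11.15 with numpy 2.4.6 and pandas 2.3.3, and the code was tested on simulated data. Symbols, known for 65.9% of the genes, were matched by Ensembl identifier. Exon lengths and positions come from the NCBIM37 annotation, which may not be the one used for counting: the methods name mm9, but positions the study prints are closer to those of GRCm38, so positions and per-kilobase levels here are approximate. Each measured gene could be named within its family. Some genes are not reported here, and 4 of them, potassium channel genes, are kept in the counts but not drawn. Full values went to genes over 2-fold in any comparison, genes the study lists as changed, the 12 genes of highest count per kilobase and the current list. Kcnh7, Kcnt2, Kcnj6, Kcnf1 and Kcnn4 were described more fully after their values were seen. Genes and lists were chosen with earlier results of these data known.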

Additional observations from a re-analysis of the deposited data

How the results depend on the processing

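Counts of potassium channel genes over 2-fold depended on low genes and on the setting, except the count lower in mutant-normoxia, which is Kcng1. With a pseudocount of 10, 0 genes were over 2-fold higher or lower in wild-hypoxia, 0 higher in mutant-normoxia, where Kcns3 came to 0.68, and 0 lower in wild-hypoxia against mutant-normoxia. With at least 50 fragments in some group (41 genes) there were 0 over 2-fold higher in mutant-normoxia, 0 lower in wild-hypoxia and 0 lower in wild-hypoxia against mutant-normoxia, because genes such as Kcns3 are no longer tested. With no minimum beyond 1 fragment (81 genes) there were 2 higher in mutant-normoxia (Kcns3 and Kcns2), 3 lower in wild-hypoxia (Kcnh4 and Kcnt1 among them), 1 higher in wild-hypoxia against mutant-normoxia (Kcnv2) and 3 lower there. Scaled to equal totals, 0 genes were over 2-fold higher in wild-hypoxia. With the variance not divided by the number of samples, the genes over 2-fold and over 3 model SE fell to 0 higher in wild-hypoxia and 0 lower in mutant-normoxia, since the error grows. Kcng1 stayed over 2-fold lower in mutant-normoxia under every alternative run. The medians kept their sign except that of mutant-normoxia, 0.03, which was -0.03 with at least 50 fragments. Of 462 single-gene values, all moved by less than their model SE and 5 crossed the fold, that of Kcns3 among them. No replicate could be left out, and no spread between samples could be computed from group values. No paired analysis was possible because the table gives 1 value per group and none per sample.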
